A study of Mus musculus with 6 samples.

Results

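A set of 10 genes of interleukin-1, Toll-like receptor, NF-kB and inflammasome signalling was followed in the cortex of 5XFAD mice: the ligands Il1a, Il1b and Il18, the receptors Tlr2 and Tlr4, the NF-kB genes Nfkb1 and Nfkbia, and the inflammasome genes Nlrp3, Pycard and Casp1. They were taken by gene symbol, and all 10 were found among the 54532 genes of the count table. Every mouse carried the 5XFAD genotype, that is, human amyloid precursor and presenilin transgenes with familial Alzheimer mutations driven by Thy1 promoter elements. The 3 control libraries came from mice with the treatment label NC and the 3 cell-treated libraries from mice given cell therapy (treatment label cell-treat), which the series title describes as human GABAergic interneurons grown from induced pluripotent stem cells. Age, sex and any sham operation are not given in the sources used here, and no library analysed here came from mice without the transgenes. The table heads the control libraries with the letters AD, and a further deposited table heads their mean AD_Treated, so their assignment to the controls is an inference on which the sign of every difference depends.

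These genes form a chain of innate immune signalling. Toll-like receptors and the interleukin-1 receptor signal through a shared adaptor to the kinases that release NF-kB, a dimeric transcription factor, from its inhibitor IkB-alpha, the product of Nfkbia. NF-kB then drives genes for cytokines, for Nlrp3 and for Nfkbia itself, which closes a negative feedback loop. The sensor NLRP3, the adaptor ASC (from Pycard) and caspase-1 assemble into the inflammasome, which cuts the precursors of interleukin-1 beta and interleukin-18 into their active forms. In the brain much of this machinery is carried by microglia, and the NLRP3 inflammasome is studied in Alzheimer models because of its activation by amyloid.

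For no member did the difference between the groups pass the test against the spread between libraries. The sign of the difference for Tlr2, which was close to 0, turned with any of several libraries left out. For Il1a and Nfkbia the direction rested on cell-treated library 3. In that library Nfkbia stood at 50.2 CPM (the count scaled to a common library size), against 13.4 to 22.7 in the other 5, while Il18 was at 5.60 CPM against 14.2 to 26.8. Nfkb1 lay between 27.5 and 31.1 CPM in all 6 libraries, and Il1b was near the detection floor, with 6 to 11 counts per library. CPM values here are scaled with TMM factors, which correct for library composition, and 1 count was worth 0.0622 to 0.0701 CPM.

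Library totals ran from 14221519 to 16696463 counts. Cell-treated library 3 stood apart, with a mean Pearson correlation with the others of 0.929 across genes, which are not independent replicates, against 0.959 to 0.965 for the rest. Log2 fold changes given for named genes are shown with and without it where they moved by over 1.5 times, or turned in sign, when it was left out. Markers of neurons and of cortical excitatory cells were present throughout, at summed levels of 4790 to 6159 and 1169 to 1744 CPM. Markers of other sources differed in level between libraries, and none passed the adjusted test between the groups. Striatal markers summed to 520, 530 and 1510 CPM in control libraries 1 to 3 and to 247, 262 and 635 CPM in cell-treated libraries 1 to 3. All 7 had log2 fold changes below 0. For 4 of them, Ppp1r1b, Drd2, Adora2a and Rgs9, the groups did not overlap, against 8.60% of all genes tested in either direction. Red blood cell markers summed to 49.4, 18.9 and 6.78 CPM in controls and to 105, 136 and 275 CPM in cell-treated libraries. For 5 of 5 every cell-treated value lay above every control, beside the same 8.60% of all genes without overlap. Olfactory bulb markers summed to 282 CPM in cell-treated library 1 and to at most 37.6 CPM elsewhere. The part of these sources in the results was not tested. Since the libraries are of bulk tissue, fewer cells of a type and less RNA per cell cannot be told apart.

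**Figure D1:**
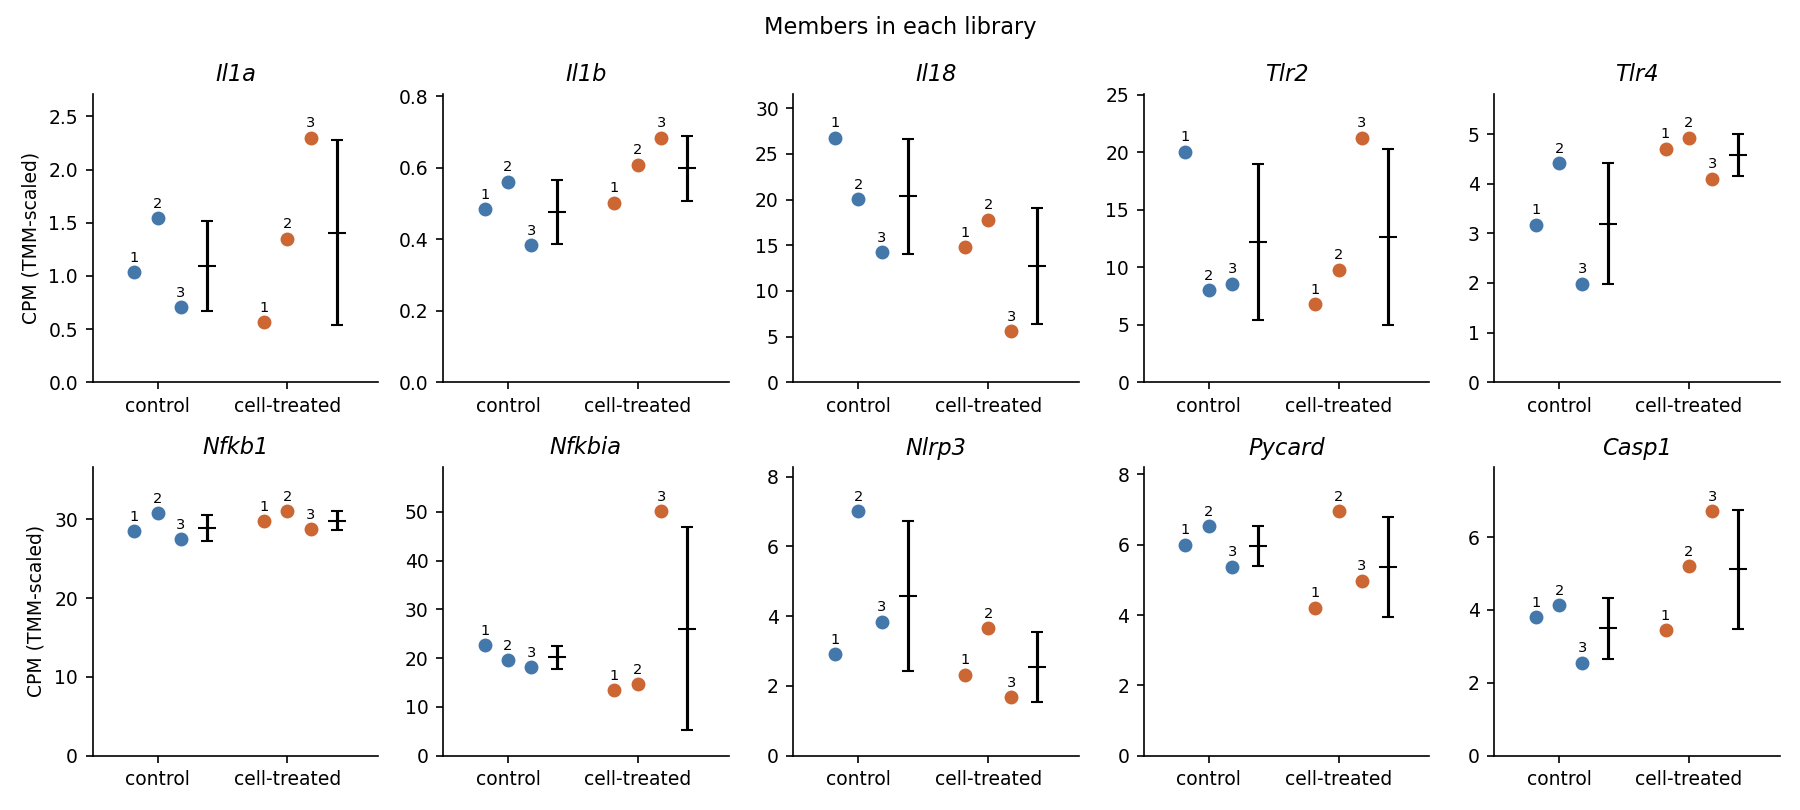
Level of each member gene in CPM (TMM-scaled, linear axis from 0) in the 3 control libraries (blue) and the 3 cell-treated libraries (orange), numbered by replicate; the bar beside each group is its mean ± SD. Cell-treated library 3 is highest for Nfkbia at 50.2 CPM and lowest for Il18 at 5.60 CPM, whereas Nfkb1 stays between 27.5 and 31.1 CPM.

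Levels were compared between genes per length, as FPKM, a fragment count scaled to gene length and library size. By the median of the 6 libraries the order was Il18 at 15.8 FPKM, Nfkbia at 11.7, Tlr2 at 3.03, Casp1 at 2.63, Nfkb1 at 2.44, Pycard at 1.48, Nlrp3 at 0.802, Tlr4 at 0.769, Il1a at 0.601 and Il1b at 0.278. Nfkbia exceeded Tlr2, Nfkb1 exceeded Pycard, and Il1a exceeded Il1b in 6 of 6 libraries. Other neighbours in this order were not separated in every library: Tlr2 exceeded Casp1 in 3 of 6, Casp1 exceeded Nfkb1 and Nlrp3 exceeded Tlr4 in 4 of 6, and Il18 exceeded Nfkbia, Pycard exceeded Nlrp3 and Tlr4 exceeded Il1a in 5 of 6.

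Each gene was tested between cell-treated and control libraries with edgeR's quasi-likelihood test over 17042 genes that passed a filter on low counts, with Benjamini-Hochberg adjustment. Of the members, 9 passed the filter and Il1b did not. At an adjusted p of 0.05, 0 members were called, as were 0 genes of the whole table (0.00%), and the adjusted p was 0.999 for each member. At an unadjusted p under 0.05 the count was again 0 of 9 members, against 2.0% of all genes tested. For 0 of the 9 did the groups fail to overlap, against 8.60% of all genes. DESeq2, which called 11 genes over the table (0.0647%), and limma voom, which called none (0.00%), also called 0 members. Of the 9, 6 had a log2 fold change above 0, against 50.2% of all genes tested, and their median was 0.050, beside 0.0013 over all genes. In 3 libraries a group the exact permutation test of a single gene cannot give a p below 0.1, and no member reached that value.

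Among the ligands, Il1a and Il1b lie 54.6 kb apart on chromosome 2. Il1a, whose product is already active as a precursor and acts as an alarm signal of damaged cells (ENSMUSG00000027399, 129299610 to 129309972, minus strand), had 15, 22 and 11 counts in control libraries 1 to 3 and 9, 20 and 37 in cell-treated libraries 1 to 3. Cell-treated library 3 was the highest and cell-treated library 1 the lowest, so the groups overlapped on both sides. In CPM these were 1.09 ± 0.423 in controls and 1.41 ± 0.870 in cell-treated libraries (SD, n = 3 each). The log2 fold change was 0.36 ± 0.584 (SE), and -0.19 ± 0.568 without cell-treated library 3. Exact Poisson 95% intervals of the counts ran from 4.1 to 17.1 in cell-treated library 1 and from 26.1 to 51.0 in cell-treated library 3; such intervals cover counting error only.

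Il1b, the main secreted interleukin-1 (ENSMUSG00000027398, 129364570 to 129371139, minus strand), had 7, 8 and 6 counts in the controls and 8, 9 and 11 in the cell-treated libraries. All 6 counts lay close together, and cell-treated library 1 tied with control library 2. The group sums were 21 counts (exact Poisson 95% interval 13 to 32.1) in controls and 28 (18.6 to 40.5) in cell-treated libraries, and these intervals overlapped. The exact two-sided permutation test of the log2 CPM gave p = 0.2 (n = 3 each), where 0.1 is the smallest it can give. Antisense transcripts overlap both genes, Gm14023 with 42 counts in all against 114 for Il1a, and Il1bos with 12 against 49 for Il1b. No strand-marking kit is named in the labels, so reads of the overlapping stretches cannot be assigned to one strand.

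Il18, a cytokine released after cleavage by caspase-1 (ENSMUSG00000039217, chromosome 9, 50554827 to 50581840, plus strand), was at 26.8, 20.1 and 14.2 CPM in control libraries 1 to 3 and at 14.8, 17.8 and 5.60 in cell-treated libraries 1 to 3. Cell-treated library 3 was far below the rest, at 0.315 times the median of the other 5, and cell-treated libraries 1 and 2 lay within the range of the controls. Il18 there was at 0.393 times the next lowest library. At the looser threshold of at least 1.5-fold below every other library, 12.7% of all genes tested were as low in cell-treated library 3. A share at a threshold nearer to the Il18 value was not taken. Group levels were 20.4 ± 6.27 CPM in controls and 12.7 ± 6.35 in cell-treated libraries (SD, n = 3 each). The log2 fold change was -0.68 ± 0.427 (SE, unadjusted p = 0.151 in edgeR), or -0.32 ± 0.275 without cell-treated library 3. At its start Il18 overlaps Bco2 on the opposite strand, which had 362 counts against 1486 for Il18.

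The libraries fell in the same order for Il18 as for the summed level of 7 astrocyte markers, a relation chosen after these values were seen. That sum was 9625, 8187 and 4932 CPM in the controls and 5520, 7923 and 2490 CPM in the cell-treated libraries. Per 1000 CPM of the astrocyte sum, Il18 was at 2.78, 2.45, 2.89, 2.68, 2.24 and 2.25 CPM in the same order of libraries. Il18 thus varied 4.79-fold in CPM and 1.29-fold relative to the astrocyte sum. Of the 17042 tested genes, the markers themselves among them, 0.111% varied as little or less on that relative scale. For the other members this share ran from 18.4% for Nlrp3 to 93.8% for Nfkbia. Since the pair was picked for its matching values, the small share of Il18 is a description and not a test. All 7 astrocyte markers were tested, none was at 0 in any library, and 7 of 7 had a log2 fold change below 0. They did not move as one: Aldh1l1 had 1803 counts in cell-treated library 3 and 1128 to 2314 elsewhere, whereas Slc1a2, a glutamate transporter and the most abundant of the 7 by count in the other 5 libraries, had 11244 against 41779 to 69345. Relative to the summed microglial markers Il18 varied 6.61-fold. The summed oligodendrocyte markers, too, were highest in control library 1 and lowest in cell-treated library 3, in a partly different order between. They stood at 8282.4, 5778 and 4900.5 CPM in controls and 4641.5, 7625.3 and 2925.9 CPM in cell-treated libraries. Falling with Il18 was thus not particular to astrocyte markers. The part of astrocyte or oligodendrocyte content in the Il18 values was not tested.

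**Figure D2:**
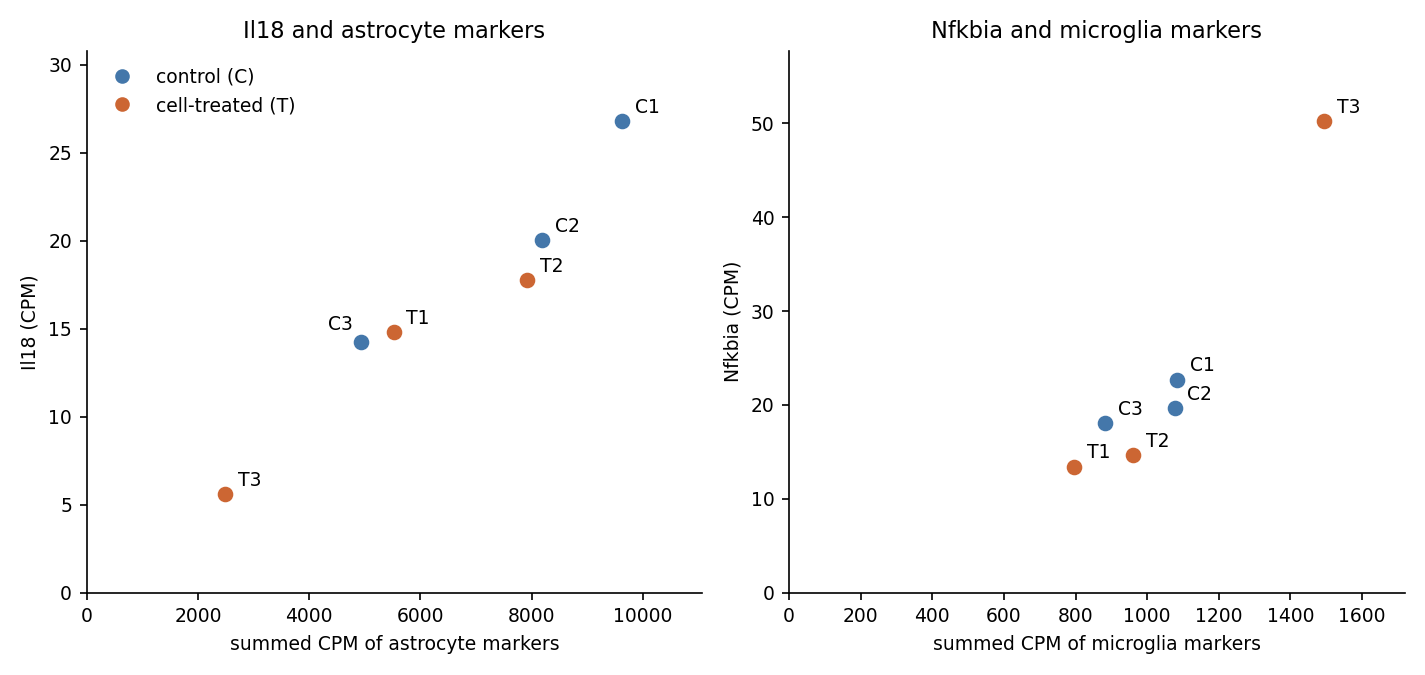
Left, Il18 (CPM) against the summed CPM of 7 astrocyte markers; right, Nfkbia (CPM) against the summed CPM of 10 microglial markers; each point is 1 library, C for control (blue) and T for cell-treated (orange), with its replicate number. Il18 follows the astrocyte sum from cell-treated library 3 (5.60 CPM) up to control library 1 (26.8 CPM), and Nfkbia in cell-treated library 3 (50.2 CPM) stands above the other 5 libraries.

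Of the receptors, Tlr2 recognises bacterial lipoproteins and has been described as a receptor of amyloid fibrils (ENSMUSG00000027995, chromosome 3, 83836272 to 83841767, minus strand). It was at 20.02, 7.99 and 8.56 CPM in control libraries 1 to 3 and at 6.77, 9.80 and 21.3 in cell-treated libraries 1 to 3. Each group held 1 high library, control library 1 and cell-treated library 3, and the remaining 4 lay between 6.77 and 9.80 CPM. Means were 12.2 ± 6.79 CPM in controls and 12.6 ± 7.65 in cell-treated libraries (SD, n = 3 each), and the log2 fold change was 0.050 ± 0.508 (SE). This value moved most with the high libraries: leaving out cell-treated library 3 gave -0.56 and leaving out control library 1 gave 0.61. Its sign also turned without control library 2 or 3, which were not high, at -0.18 and -0.15.

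Tlr4, which senses lipopolysaccharide with the help of Cd14 and Ly96 (ENSMUSG00000039005, chromosome 4, 66827584 to 66930284, plus strand), was at 3.18, 4.42 and 1.98 CPM in the controls and at 4.70, 4.93 and 4.11 in the cell-treated libraries. The cell-treated libraries lay close together, with a mean of 4.58 ± 0.427 CPM beside a control mean of 3.19 ± 1.22 (SD, n = 3 each), and overlapped them through control library 2. The log2 fold change was 0.52 ± 0.365 (SE, unadjusted p = 0.191 in edgeR), and it was 0.27 without control library 3, the lowest. Without cell-treated library 3 the groups of Tlr4 did not overlap, with cell-treated values higher, as for 11.1% of all genes in those 5 libraries (22.2% in either direction).

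Nfkb1 encodes the precursor of the NF-kB subunit p50 (ENSMUSG00000028163, chromosome 3, 135584655 to 135691547, minus strand). Its levels were 28.5, 30.8 and 27.5 CPM in the controls and 29.8, 31.1 and 28.7 in the cell-treated libraries. No library was high or low: the highest exceeded the lowest 1.13-fold, and the groups overlapped. Its SD of log2 CPM over the 6 libraries was 0.0687, against a median of 0.267 for 2779 genes of similar level (within 0.5 in mean log2 CPM), and 0.5% of these had as small an SD or smaller. The log2 fold change was 0.046 ± 0.158 (SE), and 0.072 ± 0.150 without cell-treated library 3. This standard error is of a difference between groups and the SD is of single libraries, so their widths are not compared.

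Nfkbia, the inhibitor that holds NF-kB in the cytoplasm (ENSMUSG00000021025, chromosome 12, 55489410 to 55492647, minus strand), was at 22.7, 19.6 and 18.1 CPM in control libraries 1 to 3 and at 13.4, 14.7 and 50.2 in cell-treated libraries 1 to 3. Cell-treated libraries 1 and 2 lay below every control and cell-treated library 3 lay above every control. Cell-treated library 3 was at 2.78 times the median of the other 5 libraries and 2.21 times the next highest; among all genes tested, 2.43% were at least 2-fold above every other library there. Group levels were 20.1 ± 2.35 CPM in controls and 26.1 ± 20.9 in cell-treated libraries (SD, n = 3 each). The log2 fold change was 0.37 ± 0.488 (SE, unadjusted p = 0.466 in edgeR). Without cell-treated library 3 it was -0.52 ± 0.184, at an unadjusted p of 0.0236 and an adjusted p of 0.914 in edgeR. In those 5 libraries 4.54% of all genes had an unadjusted p under 0.05, 2.34% with lower cell-treated values, 0.00% were called after adjustment, and the groups did not overlap, with lower cell-treated values, for 11.1%. Nfkbia was the 1 member of the 9 under that unadjusted p.

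Promoters of 8 members were in the RefSeq set (GRCm38.p6), as windows of 300 bases around annotated starts, 9 windows in all since Nlrp3 has 2. They were searched on both strands for the NF-kB consensus motif. It was found in 3 windows, those of Tlr2, Nfkbia and the upstream start of Nlrp3, and in 8.46% of all 32851 promoter windows. The windows that hold the motif are shown, with that of Il18, which holds none, beside them. Each runs 5′ to 3′ over 250 bases before and 10 from the start, and capitals mark the bases of a match.
Nfkbia (chr12:55492638-55492897, minus strand): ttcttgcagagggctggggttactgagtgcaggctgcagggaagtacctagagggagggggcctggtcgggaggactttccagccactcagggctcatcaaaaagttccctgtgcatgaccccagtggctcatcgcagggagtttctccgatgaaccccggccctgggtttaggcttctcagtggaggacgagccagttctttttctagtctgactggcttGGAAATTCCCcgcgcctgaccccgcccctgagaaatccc
Tlr2 (chr3:83841599-83841858, minus strand): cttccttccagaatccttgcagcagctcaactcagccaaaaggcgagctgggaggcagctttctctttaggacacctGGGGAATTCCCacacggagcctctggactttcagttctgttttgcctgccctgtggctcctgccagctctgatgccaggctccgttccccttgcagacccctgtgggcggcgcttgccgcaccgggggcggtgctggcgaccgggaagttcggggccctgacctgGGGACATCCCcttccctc
Nlrp3 (chr11:59541319-59541578, plus strand): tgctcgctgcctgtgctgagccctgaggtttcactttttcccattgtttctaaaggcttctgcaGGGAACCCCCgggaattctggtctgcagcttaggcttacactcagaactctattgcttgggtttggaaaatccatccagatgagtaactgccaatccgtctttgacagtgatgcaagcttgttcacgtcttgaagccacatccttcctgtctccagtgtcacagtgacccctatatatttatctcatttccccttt
Il18 (chr9:50554450-50554709, plus strand): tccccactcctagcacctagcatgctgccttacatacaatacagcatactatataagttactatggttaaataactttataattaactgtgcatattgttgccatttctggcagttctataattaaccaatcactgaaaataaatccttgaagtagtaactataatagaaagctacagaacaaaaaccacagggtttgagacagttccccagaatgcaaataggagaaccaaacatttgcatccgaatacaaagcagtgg
In Nfkbia the match lies on the reverse strand with its first base at -29 from the start. Tlr2 has a pair of places, beginning at -173 and at -8, and in Nlrp3 the match begins at -186. At these 3 places matches on both strands overlap. Positions are counted from RefSeq starts, which are not always those of the deposited genes. The deposited Tlr2 gene starts at 83841767, upstream of its RefSeq start, so the place at -8 lies inside it. The deposited Il18 gene starts at 50554827, beyond the window shown. Of the members with a match, Nfkbia and Tlr2 were at their highest in cell-treated library 3 and Nlrp3 at its lowest. Of those with a window but no match, Il1a, Il1b and Casp1 were also highest there, Il18 lowest and Pycard neither. A relation between motif and level was not tested. Among the promoter windows of the other listed pathway genes, 25 of 97 (25.8%) held the motif. No match in a window says only that those letters are not in it.

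Nlrp3, the sensor of the inflammasome (ENSMUSG00000032691, chromosome 11, 59541568 to 59566956, plus strand), was at 2.90, 7.01 and 3.84 CPM in control libraries 1 to 3 and at 2.32, 3.65 and 1.68 in cell-treated libraries 1 to 3. Control library 2 was the highest and cell-treated library 3 the lowest, and cell-treated library 2 lay above control library 1. Means were 4.58 ± 2.15 CPM in controls and 2.55 ± 1.0 in cell-treated libraries (SD, n = 3 each). Its log2 fold change, -0.85 ± 0.457 (SE), was the farthest from 0 among the 9 tested members, at an unadjusted p of 0.102 in edgeR. It was -0.41 without control library 2 and -0.62 without cell-treated library 3.

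Pycard, the adaptor that links sensor and protease (ENSMUSG00000030793, chromosome 7, 127989708 to 127993867, minus strand), was at 6.01, 6.52 and 5.37 CPM in the controls and at 4.20, 6.96 and 4.97 in the cell-treated libraries. Cell-treated library 2 was the highest and cell-treated library 1 the lowest. The log2 fold change was -0.15 ± 0.296 (SE), and -0.099 ± 0.297 without cell-treated library 3. Casp1, the protease that matures both cytokines (ENSMUSG00000025888, chromosome 9, 5298517 to 5307265, plus strand), was at 3.80, 4.14 and 2.56 CPM in the controls and at 3.45, 5.20 and 6.72 in the cell-treated libraries. Cell-treated libraries 2 and 3 lay above every control and cell-treated library 1 lay among them. The log2 fold change of Casp1 was 0.55 ± 0.364 (SE, unadjusted p = 0.169 in edgeR), and 0.31 ± 0.343 without cell-treated library 3. The sensor and its protease thus had fitted differences of opposite sign, neither of which passed the test.

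**Figure D3:**
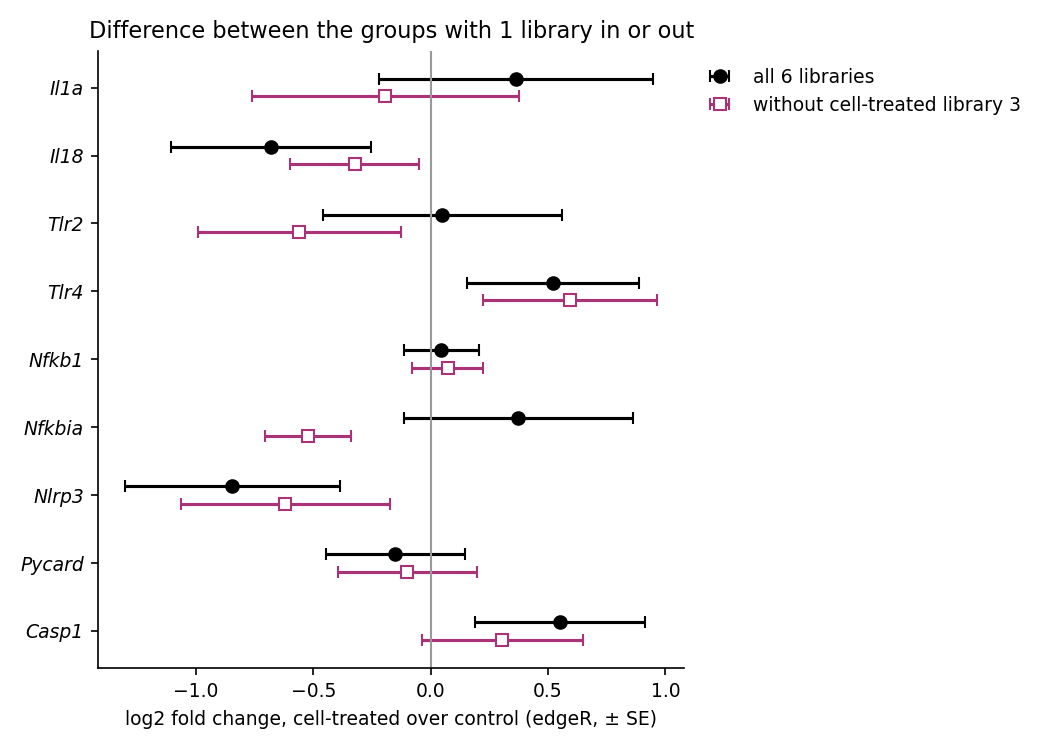
Log2 fold change of cell-treated over control libraries for the 9 tested members, from edgeR's fit of all 6 libraries (filled circles) and of the 5 without cell-treated library 3 (open squares); bars are ± SE. Nfkbia moves from 0.37 to -0.52, Tlr2 from 0.050 to -0.56 and Il1a from 0.36 to -0.19, whereas the other 6 keep their sign.

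Without cell-treated library 3, 3 of the 9 tested members had a log2 fold change above and 6 below 0, with a median log2 fold change of -0.19. The library was highest for 4 of the 9 (Il1a, Nfkbia, Tlr2 and Casp1), and for Il1b as well, against 28.7% of all genes tested. It was lowest for 2 of the 9 (Il18 and Nlrp3), against 32.6% of all genes. Microglial markers were also highest there: the sum of 10 was 1083, 1077 and 883 CPM in the controls and 797, 961 and 1495 CPM in the cell-treated libraries. None of the 10 was at 0 in any library, and 7 of the 10 had a log2 fold change above 0. The library was highest for 7 of the 10, not the same genes as the 7 just counted, and not for P2ry12, Cx3cr1 and Sall1. Cx3cr1, the fractalkine receptor, was lowest there, with 1254 counts against 1764 to 2403 elsewhere, P2ry12 was at 47.9 CPM within a range of 27.5 to 72.9, and Sall1 at 35.1 CPM within 29.2 to 100.5.

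On a scale chosen after the values were seen, per 1000 CPM of the microglial sum, Nfkbia remained highest in cell-treated library 3, at 33.6 against 15.3 to 21.0 in the other 5. Il1a was also highest there on this scale, at 1.54 against 0.708 to 1.43. Tlr2 was not, at 14.2 there against 18.5 in control library 1 and 7.42 to 10.2 in the other 4. Relative to the same sum Nlrp3 was at 1.12 in cell-treated library 3 against 2.68 to 6.51, Pycard at 3.33 against 5.27 to 7.24, and Il18 at 3.74 against 16.2 to 24.7. These 3 were lowest in that library on this scale, and so was Nfkb1, at 19.2 against 26.3 to 37.4. Casp1, at 4.49, was inside the range of the other 5, 2.90 to 5.41, as were Il1b, at 0.458 within 0.434 to 0.633, and Tlr4, at 2.75 within 2.25 to 5.90. The part of microglial content in these values was not tested.

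Markers of other immune cells were also present. Neutrophil markers summed to 0.256 to 1.47 CPM in controls and 0.540 to 4.60 CPM in cell-treated libraries, with 4.60 in library 3. Of the 8 neutrophil markers, 1 passed the filter, Ly6g and Camp never exceeded 3 counts, and 6 were at 0 in at least 1 library. Markers of monocytes and border macrophages summed to 94.7 to 114 CPM in controls and 77.6 to 97.5 CPM in cell-treated libraries, and 5 of 9 passed the filter, 1 with higher and 4 with lower values. Pf4 was at 0 in at least 1 library, and Lyz2, which microglia also express, made up most of the sum. Markers of T and B cells summed to 5.87, 8.20 and 10.2 CPM in controls and to 3.76, 5.4 and 0.622 CPM in cell-treated libraries. These sums did not overlap, but Cd4 made up most of each control sum, at 3.45, 5.33 and 7.99 CPM. In the cell-treated libraries Cd4 was at 1.88, 3.11 and 0.249 CPM. Of the 8, 2 (Cd4 and Cd8a) were tested, both with lower values and no overlap of the groups, against 8.60% of all genes tested. The groups overlapped for every other marker of this list, and 5 of the 8 were at 0 in at least 1 library. The part of these cells in the members' values was not tested.

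**Figure D4:**
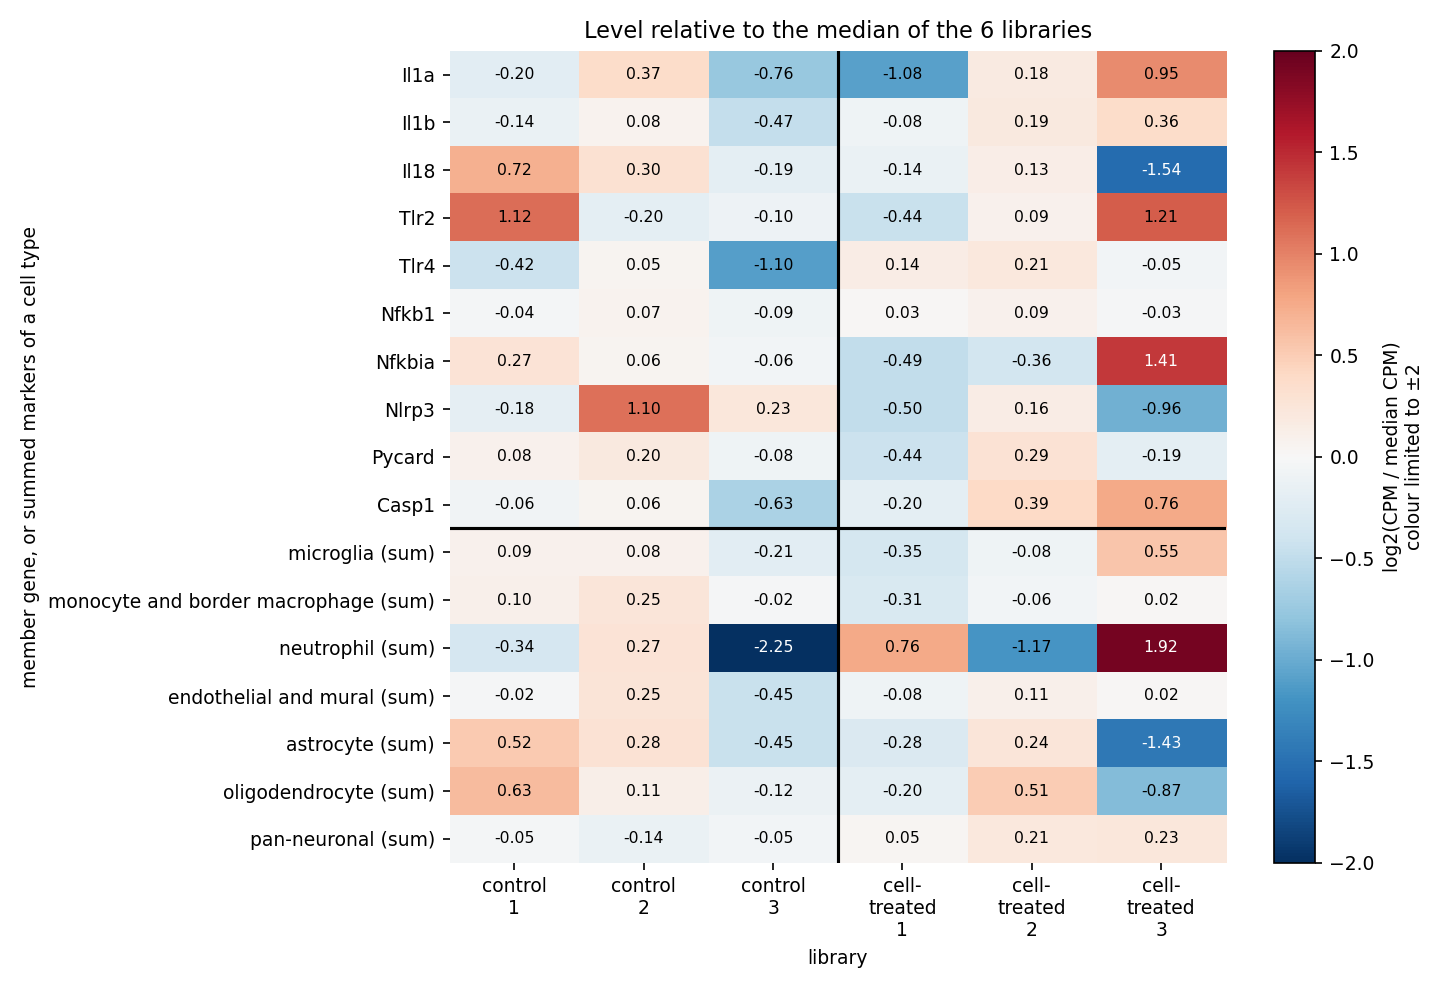
Level of each member (above the line) and summed markers of 7 cell types (below) in each library, as log2 of the CPM over the median of the 6 libraries; red is above and blue below the median, with colour limited to ±2. In the column of cell-treated library 3, Nfkbia, Tlr2 and the microglial sum are above their medians and Il18, Nlrp3 and the astrocyte sum below.

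Beyond the members, 92 further genes of the pathway were listed, of which 90 were in the table and 71 passed the filter. None was called at an adjusted p of 0.05 (0.00% of all genes), none had an unadjusted p under 0.05 (2.0% of all genes), and 1, Gsdmd, had groups that did not overlap (8.60% of all genes). Values were higher for 26 and lower for 45 of the 71, with a median log2 fold change of -0.032. Cell-treated library 3 was the highest for 29 of the 71, or 40.8%, against 28.7% of all genes.

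In the interleukin-1 family, 2 of 6 tested genes had higher and 4 lower values, with a median log2 fold change of -0.053. Il1rap, the shared accessory chain of the interleukin-1 and interleukin-33 receptors, was at 39.7, 36.2 and 26.6 CPM in controls and 36.5, 54.3 and 38.3 in cell-treated libraries, a log2 fold change of 0.33 ± 0.231 (SE). The groups overlapped. Il1rl1, the interleukin-33 receptor, had -0.64 ± 0.493, and Sigirr, an inhibitory member of the receptor family, -0.35 ± 0.362 (log2 fold change, SE). Without cell-treated library 3 these were -0.34 and -0.58. Named after their values were seen, Il1r1, the signalling interleukin-1 receptor, ranged from 5.39 to 14.6 CPM in 5 libraries and reached 29.6 CPM in cell-treated library 3, and Il1r2, the decoy receptor, had 40 counts there and 3 to 6 elsewhere. Il1rn, the receptor antagonist, had 20 counts there and 1 to 6 elsewhere, and neither of the last 2 passed the filter. Other genes of the family were lowest in that library: Il33, an alarm cytokine, was at 44.2 CPM there and at 70.5 to 140.6 CPM elsewhere, and Il1rl1 had 7 counts against 13 to 22. Il18r1, a chain of the interleukin-18 receptor, had 1 count there, as in control library 2, and 4 to 13 elsewhere.

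Among NF-kB subunits, inhibitors and kinases, all 16 genes were tested, 3 with higher and 13 with lower values. Their log2 fold changes stayed within -0.29 and 0.19 around a median of -0.031. Cyld, a deubiquitinase that restrains the pathway, had the value of -0.29 ± 0.213 (SE), which was -0.051 without control library 3, where it reached 222 CPM against 135 to 155 elsewhere. Relb, a subunit of the noncanonical pathway, had -0.18 ± 0.268 and Nfkbie, the inhibitor IkB-epsilon, 0.19 ± 0.328 (log2 fold change, SE), which dropping cell-treated library 3 brought to 0.094 and dropping control library 2 to 0.051. None of the 16 had cell-treated library 3 at least 2-fold above every other library, against 2.43% of all genes tested, so 0 of 16 is near that share. Nfkbia did have it, and the difference between Nfkbia and these genes was not tested.

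Of 22 tested Toll-like receptors, co-receptors and adaptors, 9 had higher and 13 lower values, with a median log2 fold change of -0.049. Tlr7, an endosomal receptor of single-stranded RNA, was at 11.1, 12.4 and 5.18 CPM in controls and at 6.90, 13.2 and 48.6 in cell-treated libraries. Cell-treated library 3 alone was high, and the log2 fold change of 1.26 ± 0.685 (SE) was 0.068 without it. Tlr13, a mouse receptor of bacterial ribosomal RNA, reached 18.8 CPM in that library and ranged from 6.02 to 9.67 CPM elsewhere, with log2 fold changes of 0.57 ± 0.430 (SE) and -0.0065 without it. Traf6, the ubiquitin ligase downstream of both receptor families, had 0.28 ± 0.238, and 0.077 without that library.

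Of 14 tested inflammasome genes, 6 had higher and 8 lower values, with a median log2 fold change of -0.027. Gsdmd, whose product forms the membrane pore after caspase cleavage, was at 6.77, 7.99 and 6.33 CPM in controls and at 4.20, 5.81 and 6.16 in cell-treated libraries. Every cell-treated value lay below every control, the highest by a small margin, and the log2 fold change was -0.38 ± 0.277 (SE). Nek7, a kinase that NLRP3 needs for assembly, reached 132.5 CPM in cell-treated library 3 and ranged from 69.2 to 83.8 CPM elsewhere, and Panx1, a channel through which cells release ATP, had a log2 fold change of 0.41 ± 0.326 (SE). Without cell-treated library 3 the log2 fold changes were 0.073 for Nek7, from 0.37, and 0.19 for Panx1.

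Of 20 NF-kB target genes, 13 were tested, 6 with higher and 7 with lower values and a median log2 fold change of -0.016. Ccl4, a microglial chemokine, had -0.78 ± 0.472, Birc3, an inhibitor of apoptosis, 0.55 ± 0.406, and Sod2, the mitochondrial superoxide dismutase, 0.19 ± 0.173 (log2 fold change, SE). The groups overlapped for all 3, and without cell-treated library 3 the values were -0.51, 0.18 and 0.20. Named after their values were seen, Cxcl2, Ccl2 and Ccl5, chemokines below the filter, had 24, 43 and 96 counts in cell-treated library 3. In the other 5 libraries Cxcl2 had at most 1 count, Ccl2 at most 8 and Ccl5 6 to 13. Other chemokines of the list were lowest in that library: Ccl3 had 62 counts against 75 to 158 elsewhere, and Ccl4 14 against 18 to 41. Tnf and Il6, the best known cytokines among these targets, did not pass the filter.

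**Figure D5:**
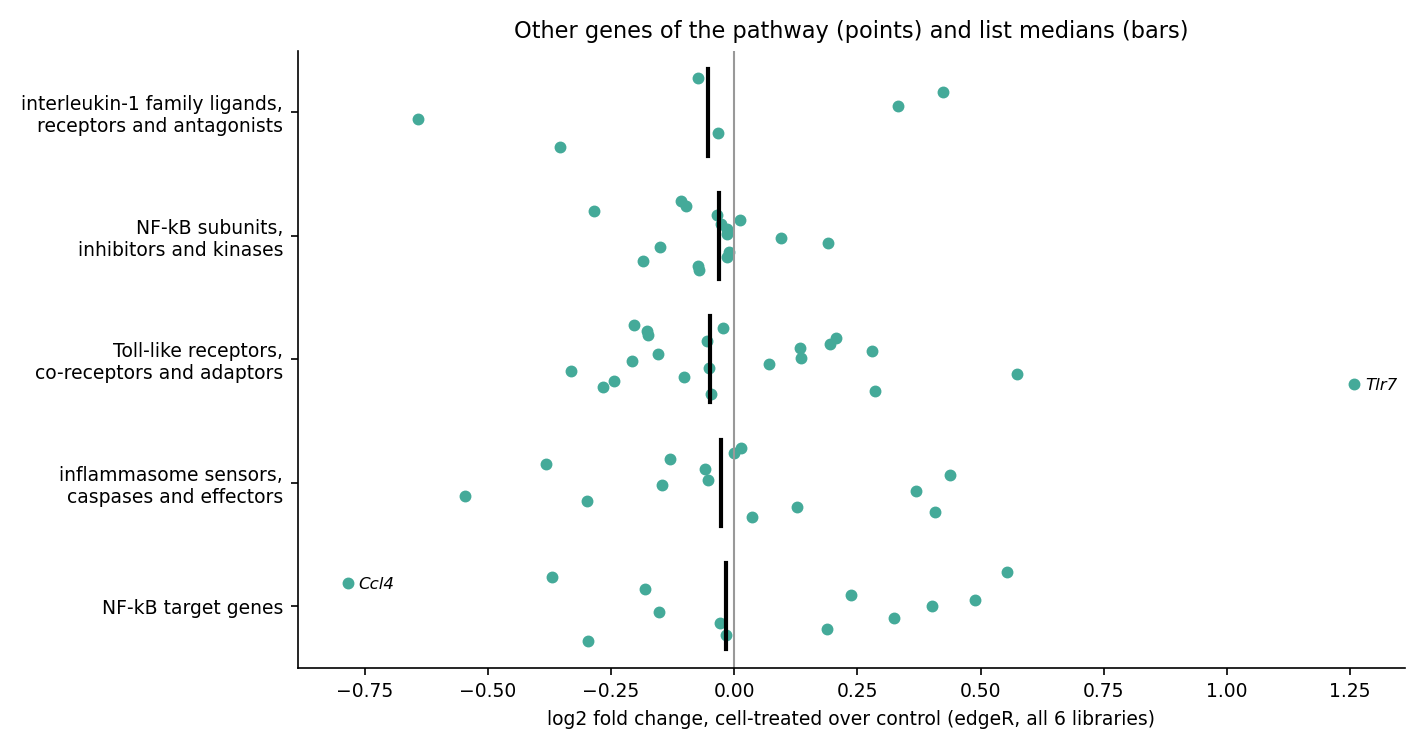
Log2 fold change of cell-treated over control libraries (edgeR, all 6 libraries) for the 71 tested genes of 5 pathway lists; each point is 1 gene and each bar a list median, with vertical offsets only to separate the points. The medians lie between -0.053 and -0.016, with Tlr7 at 1.26 and Ccl4 at -0.78 farthest from 0.

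The genes whose profile over the 6 libraries was nearest to a member were found by the root mean square difference in centred log2 CPM, among 14020 genes of at least 1 CPM. Nearest to Nfkbia were Tspan4 (0.0562), Tspo (0.0682) and Orai2 (0.0895), each highest in cell-treated library 3 by a similar amount. Among those near to Il18 were Pantr2 (0.0856) and Zfp438 (0.110), both lowest there. Tlr2 was nearest to Dhrs1 (0.0976), Casp1 to Cast (0.114) and Nlrp3 to Ccl6 (0.187). For Nfkb1 the nearest gene was Ankrd28 (0.0347), for Pycard Rad52 (0.0799), for Tlr4 Arhgap31 (0.139) and for Il1a Sytl5 (0.185). With 6 libraries such nearness is a description of these samples.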

How the data were processed

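Polyadenylated RNA of the cortex was sequenced in 6 libraries of 1 batch label, per the labels. The deposited count table holds whole-number counts per gene, and the deposited FPKM table equals those counts per gene length and per a library total that the authors scaled by 0.953 to 1.03. HISAT2 2.0.5, featureCounts and DESeq2 were used, per the submitters' processing notes, which give no settings, and the genome build was not stated in the labels. Coordinates are as deposited, and those of all 10 members equal GENCODE M21 (GRCm38). Human reads from grafted cells were not separated.

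Counts were filtered with filterByExpr (minimum count 10, minimum total 15), TMM-scaled and tested with edgeR 4.0.16 (robust quasi-likelihood, R 4.3.3), with standard errors from the F statistic, and the test was checked on simulated data. Alternatives were DESeq2 1.42.0, limma 3.58.1 (voom, sample quality weights, log2(FPKM + 1) and log2(FPKM + 0.1)), other scalings and filters, the replicate number as a block, and libraries left out. The design text gives biological replicates in each group. The p-values of edgeR set a difference between groups against the spread among these samples.

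The members and lists were chosen with earlier results of these data known. Text names the 10 members, the 3 genes of smallest p in each pathway list, the genes nearest to a member (mean of at least 1 CPM, predicted genes left out), and others where stated; 1 gene that this rule names is not reported here. Microglial and astrocyte markers were summed per library. The third deposited table, of group means, was not used. Figures were drawn with matplotlib 3.10.9.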

Additional observations from a re-analysis of the deposited data

How the results depend on the processing

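No member and no pathway gene was called under any of the 18 alternatives. Over all genes, where edgeR called 0, DESeq2 called 11 and edgeR with no filter on low counts 1; the count at an unadjusted p under 0.05, 340, ran from 203 (without control library 2) to 796 (without cell-treated library 3) with 1 library left out, and was 1531 without control and cell-treated libraries 3 together and 1899 with sample quality weights. The median log2 fold change of the tested members, 0.050, ran from -0.19 (without cell-treated library 3) to 0.35 (without cell-treated library 1) with 1 library left out, with 0.33 without control library 1. It was -0.46 with sample quality weights and -0.43 without both libraries 3. Under quality weights the list medians were -0.35 for the inflammasome and -0.31 for NF-kB targets, and without both libraries 3 they were -0.30 for the interleukin-1 family, -0.43 for the inflammasome and -0.30 for NF-kB targets. Among the pathway genes, 0 of 71 had an unadjusted p under 0.05 in edgeR with all 6 libraries, beside 340 of all 17042 genes tested. Dropping cell-treated library 2 gave 5 (653 of all 17562 genes), and dropping cell-treated library 1 gave 2 (388 of 17514). Leaving out control library 3 gave 1 (375 of 17578), as did leaving out its cell-treated counterpart (796 of 17524). With both libraries 3 left out the count was 8 (1531 of 17264). Sample quality weights gave 5 (1899 of 17042) and DESeq2 1 (406 of 17009). The count over all genes was thus above 340 in each of these settings too. The cause of the changes between settings was not tested.

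Signs turned as follows. With sample quality weights the log2 fold changes were -0.46 for Il1a, -0.53 for Nfkbia, -0.77 for Tlr2, -0.014 for Nfkbie, -0.18 for Tlr7 and -0.20 for Tlr13. Without both libraries 3 they were -0.43 for Il1a, -0.59 for Nfkbia, -0.76 for Tlr2, -0.23 for Tlr7, -0.15 for Tlr13, -0.061 for Traf6 and -0.067 for Birc3. With 1 library left out the range was -0.19 to 0.74 for Il1a, -0.52 to 0.69 for Nfkbia, -0.56 to 0.61 for Tlr2 and -0.0065 to 0.88 for Tlr13. Nfkbia and Il18 had unadjusted p-values of 0.0496 and 0.0392 with sample quality weights and of 0.0110 and 0.0380 without both libraries 3, and none of these held after adjustment (0.432 to 0.558). Scalings other than TMM moved the median of all genes by less than 0.1.

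The replicate number as a block called 0 genes, with a median of 0.047 over the members, and gave Il18 -0.79 at an unadjusted p of 0.0385 (adjusted 0.998, edgeR). Same-numbered libraries deviated together with correlations of -0.262, 0.0816 and 0.0788, and control library 1 correlated best with cell-treated library 2 (0.156), so the numbers were not taken as pairs. Il1b and Il1a had 6 to 37 counts per library, and the part of depth in their values was not tested.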
